A study of Equus caballus with 10 samples.

Results

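The interferon regulatory factors are transcription factors that share a DNA-binding domain at their amino-terminal end and switch interferon genes and interferon-stimulated genes on or off. The 8 members described here, IRF1, IRF2, IRF3, IRF4, IRF5, IRF7, IRF8 and IRF9, were taken by gene name from a table of 29196 genes of equine tenocytes, and all 8 were found and tested. Primary tendon cells from the superficial digital flexor tendon of adult Thoroughbred or Thoroughbred-type horses were grown for 14 days in 3D collagen gels. RNA was sequenced from 5 lines, each from a different horse, and every line gave 1 library with PF-06650833 alone and 1 library with IL-1β plus PF-06650833. PF-06650833, a small molecule inhibitor of the kinase IRAK-4, was in the medium of both groups at 100 nM and was renewed each day. IL-1β, an inflammatory cytokine, was given at a dose of 17 ng/ml at intervals of 3 to 4 days. The groups therefore differed in IL-1β and shared the inhibitor, and gels without the inhibitor were not analysed here. The tenocyte lines are called lines 1 to 5.

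Interferon regulatory factors act at several steps of the response to infection and inflammation. IRF3 and IRF7 wait in the cytoplasm until TBK1 or the related kinase encoded by IKBKE phosphorylates them, and then induce type I interferon genes, while IRF5 serves Toll-like receptors through MYD88. IRF9 joins STAT proteins such as STAT2 to form the complex ISGF3, which carries the signal of type I interferon to its target genes. IRF1 is induced by interferons and by NFκB and activates antigen processing and chemokine genes, IRF2 competes with it for the same DNA sites, and IRF4 and IRF8 are known best from lymphoid and myeloid cells, where they bind DNA with partners such as SPI1 and BATF. No sequence of these genes or proteins was used here.

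The deposited values are variance-stabilized and on a log2 scale, on which a gene without reads has the value 3.433. Estimated reads on genes ranged from 26672336 to 36093461 per library, and the ranges of the groups overlapped. A gene was counted as changed at an adjusted p below 0.05 from limma over 17992 tested genes, and as changed at least 2-fold where the absolute log2 fold change was also at least 1. Levels were compared within a gene and not between genes, because the values carry no correction for transcript length. In bulk RNA, more cells that express a gene and more RNA per cell cannot be told apart. Of 9 tenocyte markers in the table, COL1A1, COL1A2 and DCN were abundant, TNMD had 0 reads in all 10 libraries, and SCX, MKX and COMP fell with IL-1β plus PF-06650833. When the tenocyte line was a replicate block in the fit, 5 of the 8 tested tenocyte markers fell, COL1A1 (log2 fold change -1.38, adjusted p = 0.0147 from limma) and COL1A2 (-1.28, adjusted p = 0.0169) among them. DCN went the other way, higher in 5 of 5 lines (log2 fold change 1.01), and did not pass (adjusted p = 0.0529 from limma with the block). By the reads present, the cells carried tendon fibroblast genes but not tenomodulin.

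With IL-1β plus PF-06650833, 3 of the 8 interferon regulatory factors rose and none fell (0). These were IRF8, IRF1 and IRF9. Of all tested genes 7.57% rose and 7.89% fell by the same rule. IRF1 and IRF8 rose at least 2-fold, as did 3.11% of all tested genes. IRF7 had a log2 fold change of 1.55 but an adjusted p of 0.052. In the fit with a replicate block, in which the number marks the horse, IRF7 also passed (adjusted p = 0.0205), so that 4 of 8 members rose and none fell (0), against 10.9% of all tested genes that rose and 11.3% that fell. IRF2, IRF3, IRF4 and IRF5 passed in neither fit. The median log2 fold change of the 8 members was 0.55, beside -0.0063 for all tested genes. Leaving out either line 1 or line 2 left 1 member called, IRF8, with 4 lines remaining. All fits with a library or a line left out, here and below, were made without the block and so ignore the pairing by line.

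**Figure D1:**
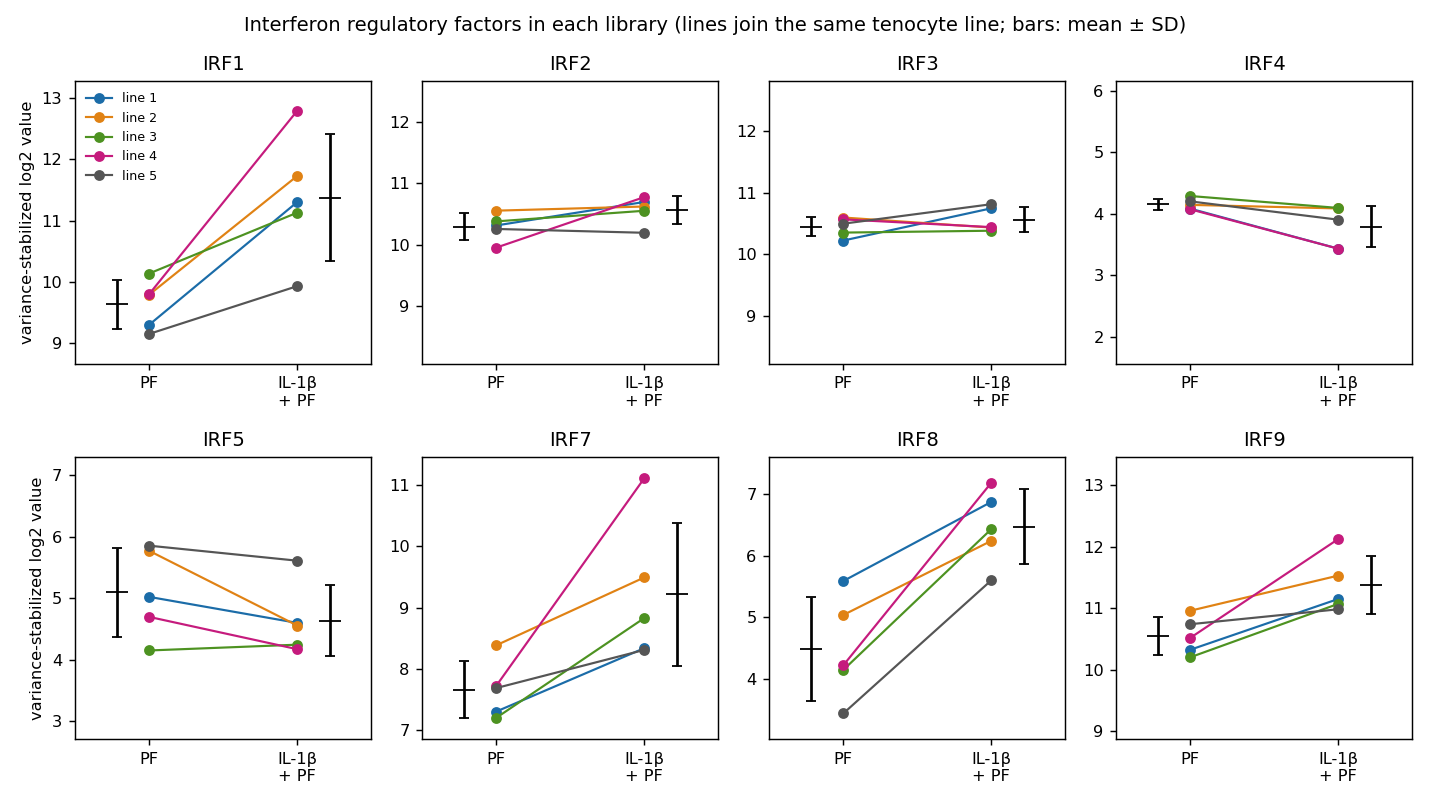
Variance-stabilized log2 values of the 8 interferon regulatory factors in each library (y axes span the same range in every panel), with PF-06650833 alone (PF) and IL-1β plus PF-06650833. Coloured points are tenocyte lines 1 to 5, joined within a line, and black bars are the mean ± SD of 5 libraries. IRF1, IRF7, IRF8 and IRF9 are higher with IL-1β in every line, and IRF4, which has few reads, is lower in every line. The points overlap between the groups for every member except IRF8 and IRF9.

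IRF1, the activator that drives antigen processing and chemokine genes, had log2 values of 9.30, 9.79, 10.14, 9.80 and 9.15 in lines 1 to 5 with PF-06650833 alone. Their counterparts with IL-1β had values of 11.30, 11.73, 11.13, 12.79 and 9.93 in the same lines. It was higher in 5 of 5 lines, but the groups overlapped, since line 5 with IL-1β lay below line 3 without it. The mean rose from 9.64 ± 0.40 to 11.37 ± 1.03 (SD, n = 5 in each group), which is 1.74 higher on the log2 scale (SE 0.42, with an adjusted p of 0.0189 in limma). The mean normalized count rose from 800.2 to 3215. The change within a line ran from 0.78 in line 5 to 2.98 in line 4. Without the block, IRF1 no longer passed when line 1 (adjusted p = 0.0908 from limma) or line 2 (adjusted p = 0.0838 from limma) was left out. With the block and all 5 lines its adjusted p from limma was 0.00592.

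IRF2, which binds the sites of IRF1 and holds their activity down, had log2 values of 10.31, 10.55, 10.38, 9.95 and 10.25 in lines 1 to 5 with PF-06650833 alone. Together with IL-1β the values were 10.69, 10.62, 10.55, 10.77 and 10.19. The groups overlapped, and IRF2 was higher in 4 of 5 lines. The log2 fold change was 0.28 (95% confidence interval -0.023 to 0.58, adjusted p = 0.202 from limma). The difference between the log2 values of IRF1 and IRF2 in the same library rose in every line, by 1.61, 1.86, 0.82, 2.16 and 0.84 in lines 1 to 5. IRF1 therefore gained on IRF2 in all 5 lines, also in line 5, where IRF1 changed least.

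IRF8, known best as a regulator of monocytes and dendritic cells, had few reads with PF-06650833 alone. It had an estimated 25, 11, 2, 3 and 0 reads in lines 1 to 5, which are log2 values of 5.59, 5.04, 4.14, 4.22 and 3.43. After IL-1β it had an estimated 79, 49, 57, 89 and 25 reads, with log2 values of 6.88, 6.24, 6.43, 7.19 and 5.60. The groups did not overlap, which held for 6.29% of all tested genes in the same direction, but the highest library without IL-1β (line 1) and the lowest with it (line 5) differed by only 0.012 on the log2 scale. The mean rose from 4.48 ± 0.84 to 6.47 ± 0.61 (SD, n = 5 in each group), which is 1.99 higher on the log2 scale (SE 0.42, with an adjusted p of 0.00954 in limma). IRF8 was the member with the smallest adjusted p. At so few reads the variance-stabilized scale understates fold changes, and the mean normalized count was 7.52 times as high with IL-1β.

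IRF8 is a leukocyte gene in many tissues, so the leukocyte markers were read beside it. Of 14 leukocyte markers, 8 never exceeded 3 estimated reads, among them PTPRC, the pan-leukocyte phosphatase CD45, SPI1, CSF1R, CD79A and LCK, and CD3E, CD2 and MS4A1 had 0 reads in all 10 libraries. Of the 5 markers that could be tested, CD74 (log2 fold change 3.73) and CD68 (1.70) rose and none fell (0). CD74 is the invariant chain of MHC class II and CD68 is a lysosomal membrane protein, and neither is limited to leukocytes. CD14 varied between lines, with an estimated 1458, 234, 0, 0 and 0 reads in lines 1 to 5 with PF-06650833 alone and 1374, 621, 0, 292 and 1044 with IL-1β, and did not pass (adjusted p = 0.34 from limma). The summed normalized count of the 14 markers ranged from 220 to 1980 in the libraries without IL-1β and from 449.7 to 2222 in those with it. The part of leukocytes in the IRF8 result was not tested. Of 6 endothelial markers, 4 could be tested and 0 passed.

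IRF4, the lymphoid relative of IRF8, stood at the edge of detection. It had an estimated 2, 2, 3, 2 and 3 reads in lines 1 to 5 with PF-06650833 alone and 0, 2, 2, 0 and 1 after IL-1β was added. Its log2 value was lower with IL-1β in 5 of 5 lines, among them line 2 with an estimated 2 reads in both libraries. Its log2 fold change of -0.37 (95% confidence interval -0.75 to 0.015, adjusted p = 0.185 from limma) rests on these counts, and no change was detectable at this depth. Among the partners with which IRF4 and IRF8 bind DNA, SPI1, BATF and IKZF1 were too low to be tested. Of the 7 partners and corepressors that could be tested, BATF2 alone rose, from 6.45 ± 0.31 (SD, n = 5) to 8.97 ± 1.33 (SD, n = 5), with an adjusted p of 0.00936 from limma. Over all tested genes 7.57% rose. IRF2BP1, IRF2BP2 and IRF2BPL, corepressors that bind IRF2, did not pass.

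IRF7, the interferon-inducible partner of IRF3, had log2 values of 7.31, 8.38, 7.20, 7.73 and 7.69 in lines 1 to 5 with PF-06650833 alone. In the IL-1β libraries the values were 8.34, 9.49, 8.83, 11.10 and 8.31. IRF7 was higher in 5 of 5 lines, and line 4 stood far above the other lines. The groups overlapped narrowly, because line 2 without IL-1β lay above lines 1 and 5 with it. The means were 7.66 ± 0.46 (SD, n = 5) and 9.21 ± 1.16 (SD, n = 5), and the standard error of the log2 fold change was 0.48 without the block and 0.36 with it. With a library or a line omitted, IRF7 passed without the block in 3 of 15 fits, those without the IL-1β library of line 1, 4 or 5, and its adjusted p from limma reached 0.115. Without the IL-1β library of line 4 its log2 fold change was 1.08 (adjusted p = 0.0337 from limma), and without both libraries of line 4 it did not pass (adjusted p = 0.0596 from limma).

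IRF3, which is present in resting cells and is activated by phosphorylation, had log2 values of 10.22 to 10.60 with PF-06650833 alone and of 10.38 to 10.81 with IL-1β plus PF-06650833. It was higher in 3 of 5 lines, and its log2 fold change was 0.12 (95% confidence interval -0.14 to 0.37, adjusted p = 0.558 from limma). A difference of 2-fold in either direction lies outside this interval. IRF5, the member that serves Toll-like receptors, had an estimated 13, 27, 2, 8 and 37 reads in lines 1 to 5 with PF-06650833 alone and 6, 6, 3, 2 and 25 with IL-1β. Its log2 fold change was -0.46 (95% confidence interval -1.29 to 0.36, adjusted p = 0.456 from limma), an interval that holds a 2-fold decrease. Of the sum of squares of IRF5 over the 10 libraries, 74.7% lay between the lines and 13.5% between the groups, while for IRF8 22.7% lay between the lines and 69.6% between the groups.

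**Figure D2:**
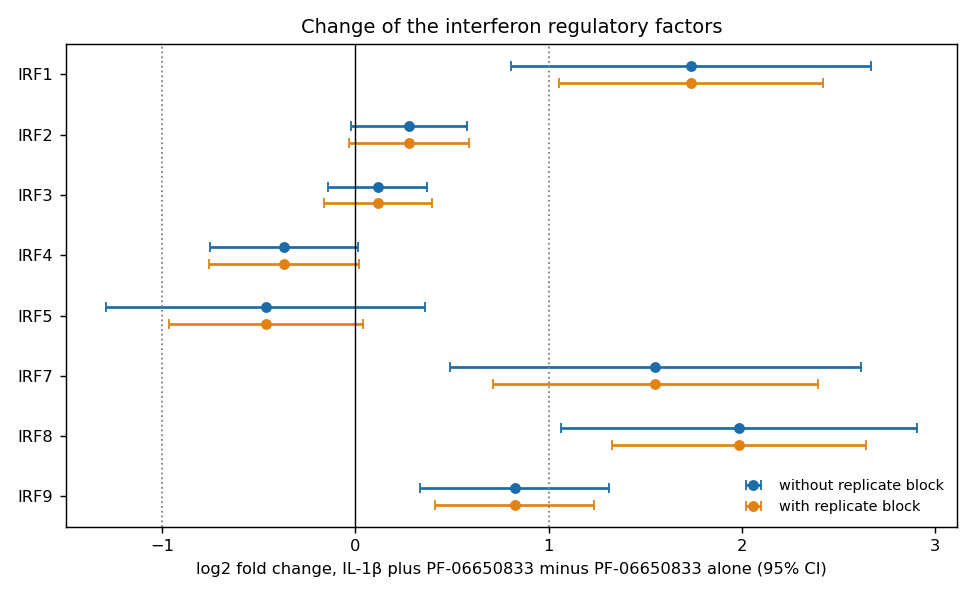
Log2 fold change of each interferon regulatory factor, IL-1β plus PF-06650833 minus PF-06650833 alone, with 95% confidence intervals from limma without (blue) and with (orange) the replicate block, 5 libraries per group. Dotted lines mark 2-fold changes. The intervals of IRF1, IRF7, IRF8 and IRF9 lie above 0, and those of IRF2, IRF3, IRF4 and IRF5 include it.

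The genes that activate IRF3, IRF5 and IRF7 moved unevenly. Of 20 tested sensors, adaptors and kinases, 6 rose, none fell (0) and 14 did not pass, with a median log2 fold change of 0.29. With the replicate block 8 of these 20 rose and 1 fell. Over all tested genes 7.57% rose and 7.89% fell without the block, and 10.9% and 11.3% with it. The gene that fell was IRAK1, a kinase that IRAK-4 phosphorylates (log2 fold change -0.33, lower in 5 of 5 lines, adjusted p = 0.0433 from limma with the block and 0.0653 without it). IKBKE, the gene of a kinase of IRF3 and IRF7, rose from 9.80 ± 0.13 to 11.11 ± 0.26 (SD, n = 5 in each group), with an adjusted p of 1.90e-04 from limma. TICAM1, the adaptor of TLR3, rose by a log2 fold change of 1.24 (adjusted p = 3.08e-04 from limma), and DDX58, the RNA sensor RIG-I, by 1.53 (adjusted p = 0.00382 from limma). TBK1 also rose, by 0.45 in log2 units (limma, adjusted p = 0.00981). IRAK4, the gene of the kinase that PF-06650833 inhibits, had a mean of 9.84 ± 0.16 in the libraries without IL-1β and of 9.95 ± 0.16 in those with it (SD, n = 5 each, log2 fold change 0.11, adjusted p = 0.571 from limma).

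IRF9, the DNA-binding subunit of ISGF3, had log2 values of 10.33, 10.96, 10.20, 10.52 and 10.74 in lines 1 to 5 with PF-06650833 alone. The IL-1β libraries of these lines had values of 11.15, 11.53, 11.07, 12.13 and 10.98. IRF9 was higher in 5 of 5 lines and the groups did not overlap, which held for 6.29% of all tested genes in the same direction. Line 5 with IL-1β was barely above line 2 without it. The mean rose from 10.55 ± 0.31 to 11.37 ± 0.47 (SD, n = 5 in each group), which is 0.82 higher on the log2 scale (SE 0.22, with an adjusted p of 0.0286 in limma), or 1.77-fold. IRF9 was the least stable of the 3 members called, with an adjusted p below 0.05 in 7 of the 15 fits with a library or a line omitted. These fits had no replicate block, and with the block and all 5 lines the adjusted p of IRF9 from limma was 0.015. In the 15 fits IRF9 was not called without line 1, 2, 3 or 4. Nor was it called without the PF-06650833 libraries of line 1, 3 or 4 or the IL-1β library of line 2. Its log2 fold change stayed between 0.63 and 0.97.

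STAT2, which binds IRF9 within ISGF3, rose from a mean of 11.12 ± 0.11 to 11.84 ± 0.54 (SD, n = 5 in each group), which is 0.72 higher in log2 units (limma, adjusted p = 0.0461). It was higher in 5 of 5 lines, and with a library or a line omitted it passed in 3 of 15 fits, those without the IL-1β library of line 3, 4 or 5. Like IRF9, it changed most in line 4 and least in line 5. STAT3, which acts outside ISGF3, decreased by 0.49 in log2 units (limma, adjusted p = 0.0134). Of 6 tested JAK and STAT genes, 2 rose and 1 fell, beside 7.57% and 7.89% of all tested genes. None (0) of these 6 was called without line 1 or without line 2.

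Of the interferon genes, 4 were looked up, and all had few or no reads. IFNB1 and IFNK had 0 reads in all 10 libraries. IFNG had 0 reads in all 5 libraries with PF-06650833 alone and an estimated 2, 3, 0, 3 and 1 reads in lines 1 to 5 with IL-1β, and IFNE had at most 3. Of the 7 interferon and receptor genes that could be tested, none fell (0) and 3 rose, beside 7.57% of all tested genes that rose. The 3 that rose were IFNGR2 (log2 fold change 0.84, adjusted p = 0.00465 from limma), IFNAR2 (0.85, adjusted p = 0.00883) and IFNGR1 (0.34, adjusted p = 0.0303), subunits of the receptors for type II and type I interferon.

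The within-line changes of the interferon regulatory factors differed in size. Of the 8 members, 5 had their largest change in line 4, and these were IRF1, IRF2, IRF7, IRF8 and IRF9. Over all tested genes the largest change lay in line 4 in 24.2%, and over the 560 genes that rose at least 2-fold in 30.4%. IRF7 changed by 1.03, 1.10, 1.62, 3.38 and 0.62 on the log2 scale in lines 1 to 5. IRF9 changed by 0.83, 0.57, 0.87, 1.61 and 0.24. Line 5 was lowest for IRF1, IRF2, IRF7 and IRF9 but not for IRF8, which changed by 2.17 there. Line 4 did not stand out in the same way over the genes that rose at least 2-fold, whose median change was 1.68, 1.78, 1.37, 1.71 and 1.83 in lines 1 to 5. The IL-1β library of line 4 had 27002119 estimated reads, the fewest of its group. The median change of the 8 tested tenocyte markers was -1.83, -1.79, -1.30, -0.66 and -2.83 in lines 1 to 5. This signed median fell least in line 4, where DCN (1.99) and THBS4 (0.41) rose and the other tested markers fell, SCX most (-3.67). The part of the tenocyte markers or of depth in the pattern of line 4 was not tested. No test was made of the difference between lines, since each line has 1 library per group.

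**Figure D3:**
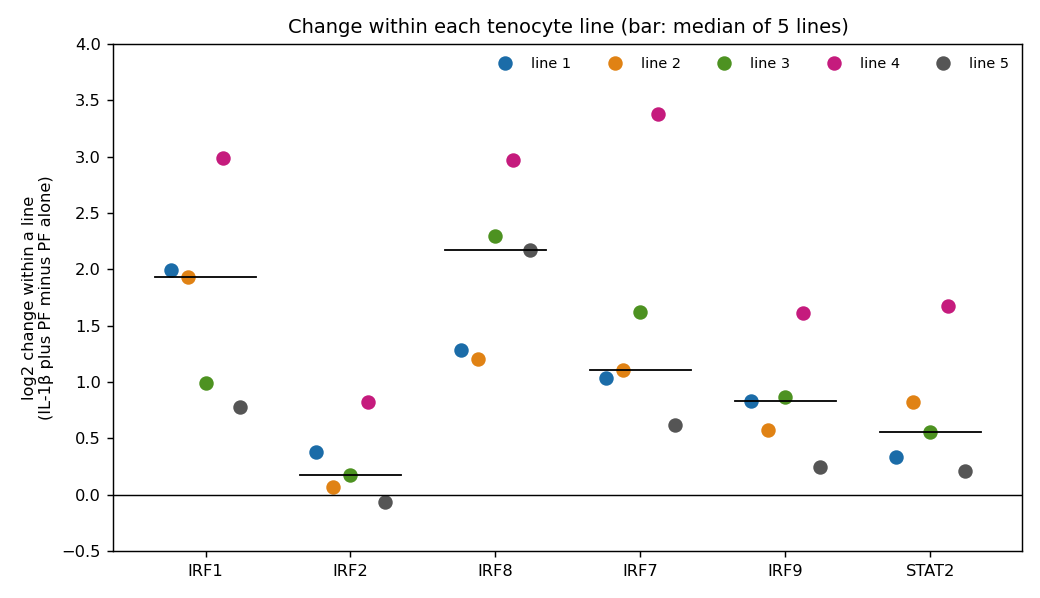
Log2 change within each tenocyte line, IL-1β plus PF-06650833 minus PF-06650833 alone, for 5 interferon regulatory factors and for STAT2, which joins IRF9 in ISGF3. Each point is 1 line and the bar is the median of the 5 lines. Line 4 lies highest for every gene shown, and line 5 lies lowest for each of them except IRF8. The members shown are those with their largest change in line 4, so the figure is no independent view of that pattern. IRF3, IRF4 and IRF5 are not shown, and in each of them line 4 had rank 4 of the 5 lines, counted from the largest change.

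Genes that these factors are known to control were counted in lists that were chosen with earlier results of these data known. The shares of all tested genes beside them come from genes not chosen in this way. Of 21 tested IRF1-dependent immune targets, 13 rose, all at least 2-fold, none fell (0) and 8 did not pass, with a median log2 fold change of 1.71. Of all tested genes 7.57% rose, and 3.11% rose at least 2-fold. CXCL11 is among the 13 and had 0 reads in every library with PF-06650833 alone. It reached the test only through its reads with IL-1β, so its call carries little weight. The chemokine CXCL9 rose from 3.90 ± 0.52 to 10.88 ± 1.63 (SD, n = 5 in each group), with an adjusted p of 1.66e-04 from limma, and CXCL10 by a log2 fold change of 5.70 (adjusted p = 0.00107 from limma). With PF-06650833 alone CXCL9 had only 0 to 7 and CXCL10 0 to 6 estimated reads, where the variance-stabilized scale understates fold changes. With IL-1β CXCL9 had 426 to 8089 and CXCL10 106 to 3870. The number of IRF1-dependent targets that rose fell to 5 without line 1 and to 8 without line 2.

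Of 33 tested targets of ISGF3, 6 rose, none fell (0) and 27 did not pass, with a median log2 fold change of 0.72, and 10 rose with the replicate block. Of all tested genes 7.57% rose without the block and 10.9% with it. Only 1 of the ISGF3 targets was called without line 1 or without line 2. RSAD2, the antiviral enzyme viperin, rose from 6.80 ± 0.80 to 9.87 ± 0.77 (SD, n = 5 in each group), with an adjusted p of 0.00127 from limma. BST2, or tetherin, had a log2 fold change of 2.81 (adjusted p = 0.0123 from limma) and SAMD9L of 1.55 (adjusted p = 0.0381 from limma). In all 33 genes the largest of the 5 changes was that of line 4, and in 22 the smallest was that of line 5. Their median change was 0.21, 0.46, 0.72, 2.02 and 0.10 on the log2 scale in lines 1 to 5. For the 21 IRF1-dependent targets it was 1.47, 1.65, 1.47, 2.99 and 1.05, and line 4 had the largest change in 18 of them. Without line 4 the median log2 fold change of the ISGF3 targets was 0.42 and 3 of them rose, while that of the IRF1-dependent targets was 1.37 and 14 rose.

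Of the 11 feedback inhibitors of interferon signalling, 2 rose, 1 fell and 8 did not pass, while 7.57% of all tested genes rose and 7.89% fell. SOCS3, an inhibitor of JAK kinases, rose by a log2 fold change of 0.54 (adjusted p = 0.0194 from limma), RBCK1 by 0.37 (adjusted p = 0.0345 from limma), and the phosphatase gene PTPN11 decreased by 0.36 in log2 units (limma, adjusted p = 0.0143). SOCS1 and USP18, inhibitors that interferon itself induces, did not pass, with log2 fold changes of -0.17 and 0.72.

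**Figure D4:**
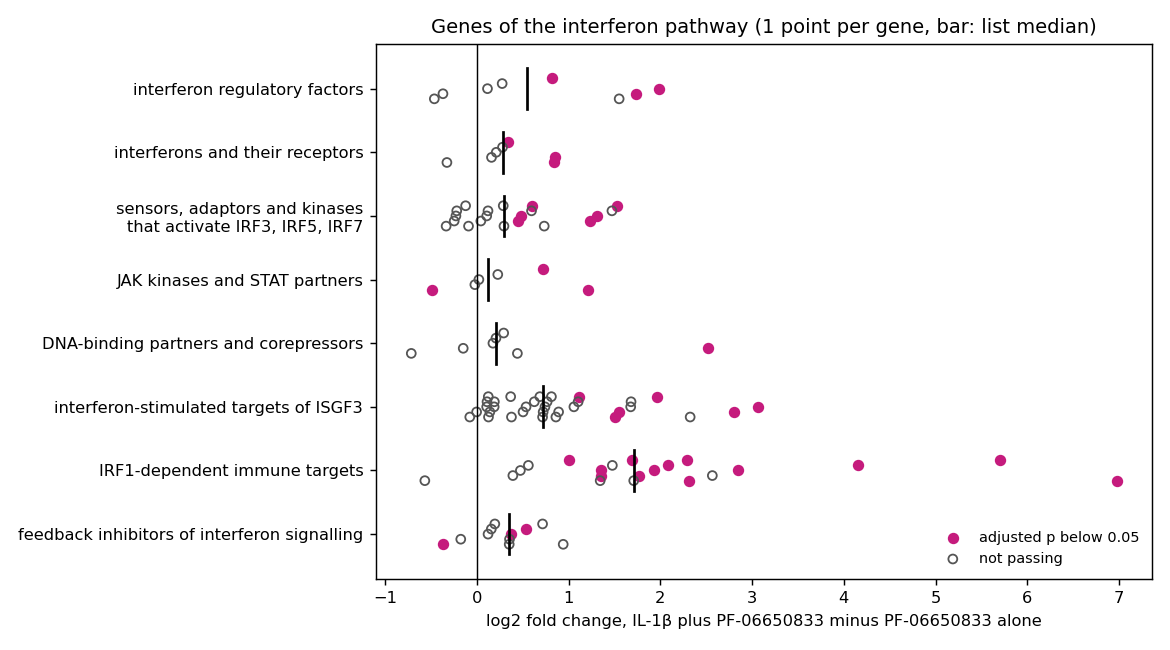
Log2 fold change, IL-1β plus PF-06650833 minus PF-06650833 alone, of every tested gene of the interferon pathway, by list. Each point is 1 gene, filled where the adjusted p from limma was below 0.05, and the bar is the median of the list. The filled points lie mainly above 0, the exceptions being STAT3 and PTPN11, and the IRF1-dependent targets lie farthest to the right.

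The genes whose profiles over the 10 libraries were nearest to those of the called members were found by the root mean square difference of their centred log2 values. Genes with only a LOC name were left out, so nearest means nearest among the other genes. For IRF1 these included PSMB10 (0.41) and ETV7 (0.45), where PSMB10 encodes a subunit of the immunoproteasome. IRF9 was nearest to APOBEC3Z2A-Z2 (0.15), DHH (0.17) and STAT2 (0.18), of which APOBEC3Z2A-Z2 (adjusted p = 0.0699 from limma) and DHH (adjusted p = 0.07) did not pass. IRF8 was nearest to EYA1 (0.48), MFSD13A (0.50) and PTGER4 (0.51). STAT2 was thus among the nearest genes of IRF9, while APOBEC3Z2A-Z2 had 0 reads in 4 of the 5 libraries with PF-06650833 alone, where the variance-stabilized scale is compressed. On back-transformed values with a pseudocount of 1, its log2 fold change was 1.79 and that of IRF9 was 0.83.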

How the data were processed

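RNA of equine tenocytes of 5 horses was sequenced after 14 days in 3D culture with the inhibitor, in the presence or absence of IL-1β. Per the submitters' notes and the study's methods, reads were checked with FastQC (version 0.11.9), quantified with Salmon (version 1.8) with GC-bias correction on the EquCab3.0 transcriptome, imported with tximport and tested with DESeq2 (version 1.36). The authors deposited variance-stabilized log2 values, normalized between libraries. The transformation is not named in the sources used here and was recognised from the lowest value, 3.433, which all libraries share. All 10 columns of values were used.

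Groups came from the treatment labels, and the replicate number is the tenocyte line in the sample title. Libraries of the same line deviated together from their group means, with correlations across genes of 0.367 to 0.506 in 5 pairs. The 20 pairs of different lines had correlations of -0.266 to 0.0869, so the numbers pair the libraries. Their mean of -0.107 is no separate evidence, because centring on the group means pulls it below 0 when libraries of the same line correlate. No 2 libraries were identical, with a highest correlation of 0.991. After removal of genes that exceeded the lowest value in fewer than 5 libraries, linear models were fitted in limma (version 3.58.1) under R (version 4.3.3), with the prior variance following the mean and without a donor term, since the methods name none, and p-values were adjusted by Benjamini-Hochberg over 17992 genes. The other fit has the replicate number as a block. Normalized counts were recovered by inverting the transformation, and reads were estimated from the spacing of low values, of which 67.9% to 84.7% were whole to a tolerance of 0.15 reads (evenly spread values would give 30%). The fit was tested on simulated data for this comparison with 17992 genes, where it found 71 of 100 genes changed 2-fold and 100 of 100 changed 4-fold, at 0.834 and 0.907 of the true log2 change, and called 6 of 17792 unchanged genes. The simulation gave every gene the same small dispersion, had no differences between lines, and changed no genes of the lowest counts. With IL-1β, normalized counts spread more for IRF1 (mean 3215, SD 2305) and IRF7 (mean 781.3, SD 797.3). The shares found do not apply to such genes.

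The members, the lists and the tests were chosen with earlier results of these data known. Named genes are the 8 members, up to 3 genes of each list by smallest adjusted p, IRAK4 and STAT2, and the 3 genes nearest to each called member, LOC names left out. TBK1, SOCS1, USP18 and the genes given as not passing or as undetected were named outside this rule. Some genes that the rule names are not reported here, and they remain in the counts and medians of the lists. The RefSeq table of another horse assembly was used for names only and holds all 8 members. No sequences or positions are given. Alternatives were other filters, scales, normalizations and variance models, the block, an exact permutation test, and leaving out each library or line.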

Additional observations from a re-analysis of the deposited data

Results flagged for a closer look

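For the 33 genes named by rule and reported here, which give 66 groups of 5 libraries, 4 groups held a library with a wide gap to the nearest of the other 4. Chance gives about 3.3, and 0 of the 4 belonged to an interferon regulatory factor. With PF-06650833 alone, line 1 was high for DDX58 (10.56 against 9.90 to 10.02 in the other 4) and for PTGER4 (8.52 against 8.03 to 8.14). APOBEC3Z2A-Z2 was at 3.94 in line 2 with PF-06650833 alone, on 1 estimated read against 0 in the others. With IL-1β plus PF-06650833, EYA1 was low in line 5, at 7.69 against 8.40 to 8.67. The cause of these was not tested.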

How the results depend on the processing

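Each of the 8 members kept its direction under every alternative that gave it a value. IRF8 passed in all 26 of its alternatives, with p-values from 0.00305 to 0.0392, adjusted except in the permutation test. Its log2 fold change was 3.51 on back-transformed values with a pseudocount of 1 and 3.79 with 0.5, and on these scales that of IRF4 was -1.01 and -1.37 and that of IRF5 -0.90 and -0.94, without passing. IRF4 and IRF8 could not be tested above the lowest value in all 10 libraries. IRF7 passed with the replicate block (log2 fold change 1.55, adjusted p = 0.0205), with the block on back-transformed values (1.65, adjusted p = 0.0189), on back-transformed values with a pseudocount of 1 (1.65) or 0.5 (1.65), above the lowest value in all 10 libraries (1.55), with quantile normalization (1.58), centred on the library median (1.58), with array weights (1.31) and in an exact two-sided permutation test of its values alone (1.55, p = 0.0238). It did not pass with no filter (adjusted p = 0.0574), a robust trend (0.0605) or no mean-variance trend (0.0639), and it passed in 3 of the 15 fits with a library or a line omitted (adjusted p up to 0.115). IRF4 passed only in that permutation test (-0.37, p = 0.0476), without adjustment. The replicate block changed no other call of a member. When a library or a line was omitted, in 15 fits, the log2 fold change ranged from 1.38 to 2.10 for IRF1, from 1.08 to 1.78 for IRF7, from 1.72 to 2.26 for IRF8 and from 0.63 to 0.97 for IRF9. The members called ranged from 1 to 4, and from 1 to 3 at 2-fold.

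Over all genes, 2782 were called and 1202 at 2-fold. These counts were 3996 and 1486 with the replicate block, 4231 at any fold with array weights, 1809 at 2-fold with the block on back-transformed values, and 1273 to 3252 and 762 to 1410 when a library or a line was left out. Of the lists, the ISGF3 targets had 10 called with the block on either scale, the IRF1-dependent targets 8 above the lowest value in all libraries, and array weights gave 2 DNA-binding partners and 5 feedback inhibitors. Leaving out a library or a line gave 1 to 7 ISGF3 targets, 5 to 14 IRF1-dependent targets, 0 to 3 JAK and STAT genes, 0 to 4 feedback inhibitors, 1 to 4 interferon and receptor genes, 1 to 2 DNA-binding partners and 4 to 7 sensors, adaptors and kinases. Of the other genes named as changed, SAMD9L, RBCK1 and PSMB10 passed in 4 of the 15 fits with a library or a line omitted and IFNGR1 in 6, while STAT3, PTPN11 and SOCS3 passed in 12, BST2 and ETV7 in 13 (not without line 1 or line 2) and IFNAR2 in 14 (not without line 1). Leaving out a line removes 2 libraries, and the cause of the other changes was not tested. Depth limits IRF4, IRF5 and IRF8, which have few reads.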
